A study of Mus musculus with 143 samples.

Results

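The data described here are the nuclear-stained segments of the fimbria and of the hippocampus, 2 neighbouring territories of the aged mouse brain. The members were all segments whose labels give the SYTO83 mask and one of these regions. Of 33 such segments, 30 passed a minimum of 1000 counts and a saturation of 50%, out of 143 segments in the whole series. Of the 30, 16 were fimbria segments and 14 were hippocampus segments, and 2 fimbria segments and 1 hippocampus segment did not pass.

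All segments came from 5 female C57BL/6 mice aged 28 months, which carried no stated treatment or allele, so the only factor compared is the region within a mouse. Sagittal 5 μm sections of hemispheres fixed for 24 hours in 4% PFA were stained with the nuclear dye SYTO83 and with antibodies to IBA1, a protein of microglia, and Galectin-3. Digital spatial profiling (GeoMx) releases the barcodes of hybridised mouse transcriptome probes from each illuminated mask and counts them after sequencing. The labels do not say how the regions of interest were placed or how many nuclei each held. Here the segments of one mouse and region were summed, which gave 5 fimbria sums and 5 hippocampus sums. A lower sum can come from fewer segments, from fewer cells or from less RNA per cell. Cell number and RNA per cell cannot be told apart.

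The fimbria is a white-matter bundle of the hippocampal formation that carries axons towards the fornix, and most of its cell bodies are glia, with myelinating oligodendrocytes prominent among them. The hippocampus proper is grey matter in which the nuclei of pyramidal and granule neurons form dense layers beside glia. Neuronal transcripts are therefore the textbook mark of the hippocampus and myelin transcripts that of the fimbria.

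These marks could not be read from the files used here, because each of the 20175 probes is listed under a manufacturer's code. None of the codes (0) matched the reference tables, so no gene name, marker list or probe sequence is given and the regional labels were not checked against markers. What can be described is how the probe counts were distributed, which coded probes led them, and whether any probe differed between the regions.

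The fimbria sums held 120329 counts in mouse N101, 95498 in N108, 110375 in N110, 93981 in N111 and 28904 in N112. The hippocampus sums held 60388 counts in N101, 16227 in N108, 115768 in N110, 70908 in N111 and 15687 in N112. These sums pooled 3, 2, 5, 4 and 2 fimbria segments and 4, 2, 5, 2 and 1 hippocampus segments, in the same order of mice. The fimbria sum was the larger in 4 of 5 mice, with means of 89817 ± 35755 counts in fimbria and 55796 ± 41894 counts in hippocampus (SD, n = 5 each). In N111 and N112 the fimbria sum also pooled more segments than the hippocampus sum. The exact sign-flip permutation test gave a two-sided p of 0.125 (0.25 after Benjamini-Hochberg adjustment over 6 values per mouse), where 5 mice cannot go below 0.0625. Spread over 20175 probes, the sums amount to between 0.778 and 5.96 counts per probe, so most single probes rested on a few counts.

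Counts in the fimbria were gathered on fewer, more abundant probes than counts in the hippocampus, in every mouse. The 100 most abundant probes took 4.53 ± 1.17% of counts in fimbria and 3.21 ± 1.02% in hippocampus (SD, n = 5 each). An even spread over all probes would give 100 probes 0.496%. In fimbria the share was 2.69% in N101, 4.12% in N108, 5.20% in N110, 4.97% in N111 and 5.65% in N112. In hippocampus it was 1.81% in N101, 3.44% in N108, 3.103% in N110, 3.04% in N111 and 4.67% in N112. The ranges of the 2 regions overlapped, with N101 lowest and N112 highest in both regions. N101 was on plate A alone and N112 on plate B alone, so mouse and plate cannot be told apart there.

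Within mice the fimbria share exceeded the hippocampus share by 1.32 ± 0.65 percentage points (SD, n = 5), and it was higher in 5 of 5 mice. The exact two-sided sign-flip permutation test gave p = 0.0625 (0.1875 adjusted over the 6 values), which is the lower bound for 5 mice. The difference therefore had 1 direction in all mice but could not reach 0.05 in this design.

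**Figure D1:**
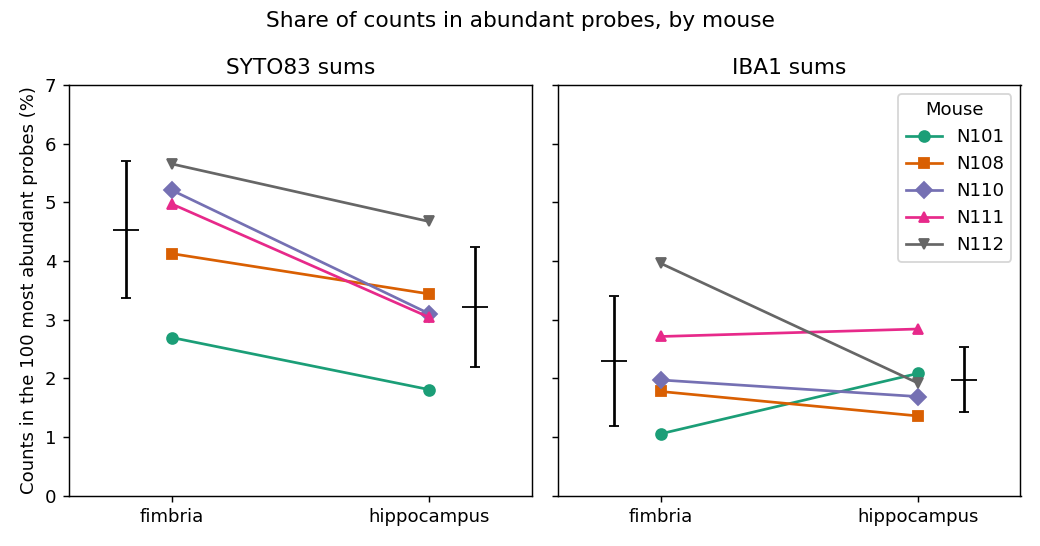
Share of counts (percent, y axis) in the 100 most abundant probes for fimbria and hippocampus (x axis), SYTO83 sums on the left and IBA1 sums on the right. Lines join the sums of a mouse, and black bars give mean ± SD over 5 mice. All 5 SYTO83 lines are higher in fimbria, against 3 of 5 IBA1 lines.

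A graded pattern appeared when the probes were ranked in the SYTO83 sums of the cortex, a region in neither group. Ranks 1 to 10 took 1.94 ± 0.67% of counts in fimbria and 1.25 ± 0.50% in hippocampus (SD, n = 5 each), with a ratio per mouse between 1.26 and 1.84. For ranks 11 to 100 the ratio lay between 1.14 and 1.65, and for the next 900 probes between 1.11 and 1.32. The 4000 probes after those stood close to parity, with ratios between 1.02 and 1.06. All of these classes were higher in fimbria in 5 of 5 mice. The 15175 remaining probes took 62.3 ± 1.97% in fimbria and 66.4 ± 2.16% in hippocampus (SD, n = 5 each), and their ratio was between 0.926 and 0.960, below 1 in all 5 mice. Since the shares of a sum add to a fixed total, a larger share of abundant probes entails a smaller share of the rest.

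**Figure D2:**
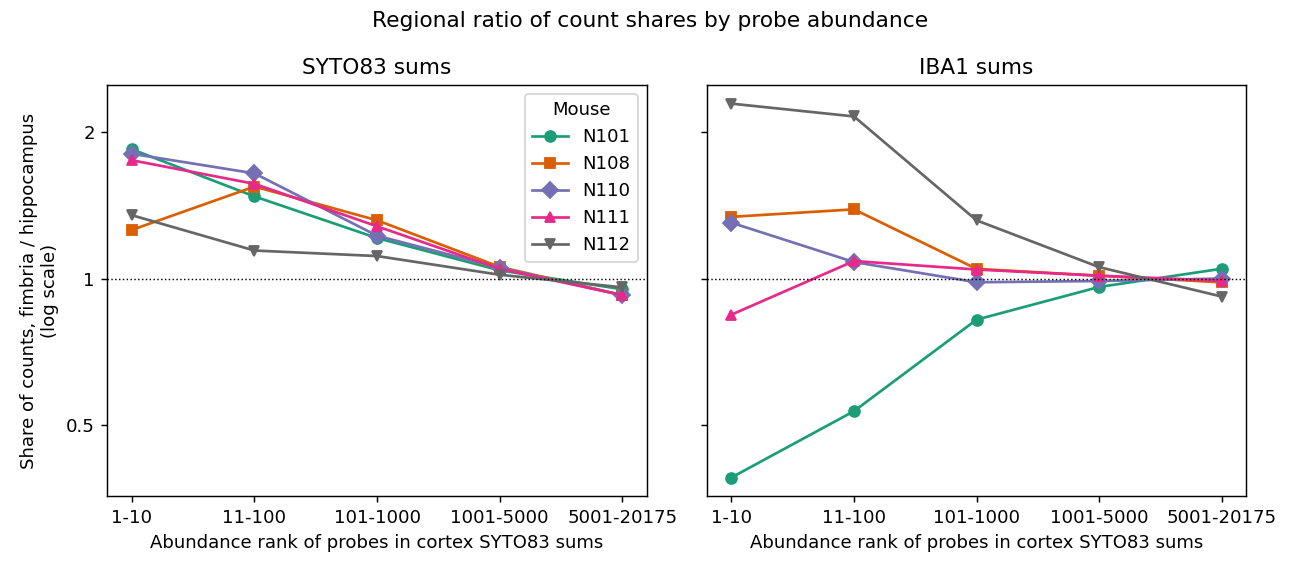
Ratio of count shares, fimbria over hippocampus (y axis, log scale), for 5 classes of probes by abundance rank in cortex SYTO83 sums (x axis), one line per mouse, for SYTO83 sums (left) and IBA1 sums (right). SYTO83 ratios of the top class lie between 1.26 and 1.84, and IBA1 ratios of that class between 0.391 and 2.29.

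Probe by probe, 37 of the 100 top probes by cortex rank held a larger share in fimbria in all 5 mice, and 0 held a smaller share in all 5. Over all 20175 probes, 961 (4.76%) were larger and 362 (1.79%) smaller in all 5 mice. By the mean over mice, 9837 of the 20175 probes held a larger share in fimbria, against 92 of the 100 top probes. Most of the 20175 probes had few counts, which limits how often a direction can repeat. The fimbria sum was the deeper in 4 of 5 mice, and a probe counted only in the deeper sum scores as larger there. The part of depth in 961 against 362 was not tested. Of the 10 top probes by cortex rank, 8 were larger in fimbria in every mouse.

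Hippocampal counts were also spread over more probes at equal depth. After each sum was thinned to 15687 counts, 50.4 ± 0.99% of probes were detected in fimbria and 51.8 ± 0.83% in hippocampus (SD, n = 5 each). The fimbria value was lower in 5 of 5 mice (difference -1.43 ± 0.50 percentage points, exact two-sided sign-flip permutation p = 0.0625, adjusted 0.1875). This value and the share of abundant probes read the same distribution and are not independent of each other.

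Depth, alignment and plate varied beside these shares. In N110 the sums were of nearly equal size, 110375 counts in fimbria and 115768 in hippocampus, and the abundant probes took 5.20% in fimbria and 3.103% in hippocampus. Reads aligned to probe barcodes averaged 55.1 ± 26.7% in fimbria and 52.3 ± 30.0% in hippocampus (SD, n = 5 each; exact two-sided sign-flip permutation p = 0.8125). The regional order of the aligned share opposed between mice: N101 had 91.8% in fimbria and 44.5% in hippocampus, whereas N111 had 41.7% in fimbria and 87.5% in hippocampus, and the abundant probes took the larger share in fimbria in both. On plate A alone the difference was 0.79 percentage points (2 of 2 mice higher), and on plate B alone it was 1.98 (3 of 3 mice higher). N110 and N111 have fimbria segments on both plates and hippocampus segments on plate B only. The part of alignment, plate and the number of nuclei in the size of the difference was not tested beyond these values.

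Single segments of the 2 regions overlapped when the plates were pooled. The share of the 100 most abundant probes ranged from 2.53% to 5.98% over 16 fimbria segments, with a median of 4.43%, and from 1.25% to 4.67% over 14 hippocampus segments, with a median of 3.40%. The 5 hippocampus segments of N110 alone ran from 1.25% to 4.32%. The lowest had 87.1% of reads aligned, and the others, at 1.55% to 35.8% aligned, ran from 3.64% to 4.32%. In N101, hippocampus segments at 80.5% to 94.1% aligned ran from 1.26% to 1.93%, and the segment at 18.9% had 2.56%. In N111, hippocampus segments at 88.0% and 86.6% aligned had 2.24% and 4.58%. A link between aligned share and this share was not tested. On plate A, fimbria segments ran from 2.53% to 4.27% and hippocampus segments from 1.26% to 3.90%. On plate B, fimbria segments ran from 4.59% to 5.98% and hippocampus segments from 1.25% to 4.67%, a narrow overlap. Segments of a mouse are not separate replicates, so no test was made over them.

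**Figure D3:**
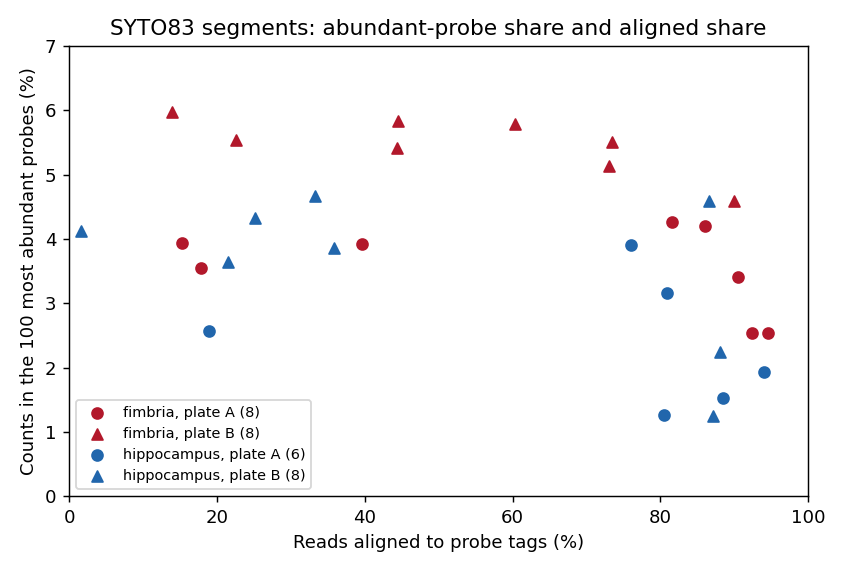
Share of counts in the 100 most abundant probes (percent, y axis) against reads aligned to probe barcodes (percent, x axis) for 16 fimbria segments (red) and 14 hippocampus segments (blue), circles for plate A and triangles for plate B. The highest fimbria segment lies at 5.98% and the highest hippocampus segment at 4.67%, and the regions overlap between 2.53% and 4.67%.

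The test of single probes asked which of them differed between the regions within mice. After a filter on low counts, 330 probes were tested by edgeR's quasi-likelihood test with TMM scaling and the mouse as a block. The filter read the same 10 sums and asked for enough counts in 5 of them, so a probe could pass through 1 region alone. At a Benjamini-Hochberg adjusted p under 0.05, 0 were higher in fimbria and 0 were lower (0% of those tested). An unadjusted p under 0.05 was reached by 26 probes, and DESeq2 called 0 as well. The log2 folds, fimbria over hippocampus, had a median of 0.02 and ran from -1.30 to 0.88, with a median standard error of 0.32. Under this scaling the 95% interval lay within 1 log2 unit of 0 for 203 of the 330 probes, and the intervals shift with the folds under other scalings. For the other 127, a difference of more than 1 log2 unit was not excluded at this depth.

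The count of calls depended on the scaling. TMM over the tested probes centres their median fold near 0, so each probe is compared with the other abundant probes. With sums scaled by total counts, the median fold was 0.51, 88.5% of the 330 folds were above 0 (50.6% under TMM), and 29 probes were called higher in fimbria (8.79%) and 0 lower. The log2 folds of those 29 lay between 0.68 and 1.41. Since the filter could pass a probe through the region where it was high, the share of folds above 0 is not independent of it. With upper-quartile scaling the median was 0.15, 63.0% were above 0 and 0 were called. TMM factors taken over all 20175 probes moved the median to 0.71 and called 134 higher (40.6%) and 0 lower, and these factors were largest in the smallest hippocampus sums, those of N108 and N112. Without the count filter, which also took the TMM factors over all probes, 18 probes were called higher (0.0892%) and 3 lower (0.0149%) of 20175, together 0.104%. A minimum count of 5 left 5511 probes, of which 5 were called higher (0.0907%) and 2 lower (0.0363%), together 0.127%. The TMM factors of that fit were taken over those 5511 probes, so filter and scaling changed together in both. RTS0076921, most of whose hippocampus counts came from 1 segment, was among the lower calls of both. No probe was called higher or lower in 18 of 25 alternative settings. Of these, the looser count minimums repeated the main fit, segments as observations tested only 13 probes and at least 75% aligned only 35. Most of the 18 also kept TMM over their tested probes, so they are not separate checks.

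**Figure D4:**
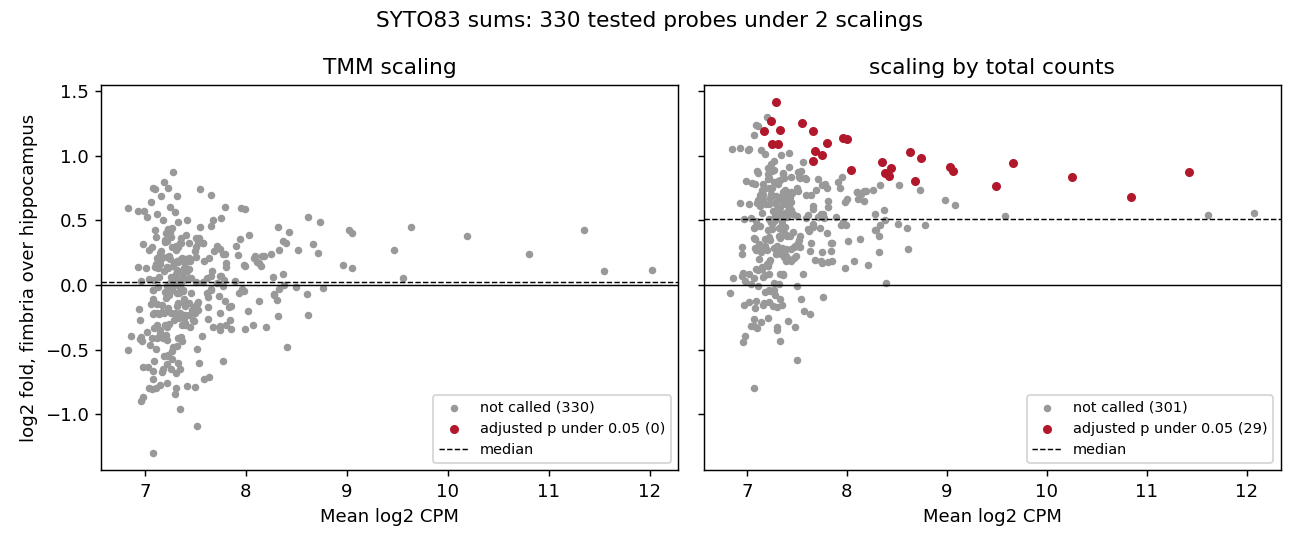
Log2 fold, fimbria over hippocampus (y axis), against mean log2 CPM (x axis) of the 330 tested probes, under TMM scaling (left) and scaling by total counts (right). Red points are called at an adjusted p under 0.05, 0 on the left and 29 on the right, and the dashed medians lie at 0.02 and 0.51.

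The leading probes follow, chosen after their values were seen, since the rule for naming probes needs a call and none was made. RTS0067799 was the most abundant probe of the 10 sums. It had 21.8, 33.4, 69.9, 59.1 and 71.6 counts per 10000 in the fimbria sums of N101, N108, N110, N111 and N112. In the same order of mice, it had 12.6, 32.05, 40.3, 40.6 and 49.7 per 10000 in the hippocampus sums. Fimbria was above hippocampus in 5 of 5 mice, by little in N108 (ratio 1.04) and by up to 1.73 in N110, while the groups overlapped across mice. The exact 95% counting intervals stood apart in 4 of 5 mice, but they cover counting error only and not the spread of segments. Over segments, fimbria ran from 20.4 to 86.7 per 10000 (median 49.1) and hippocampus from 9.71 to 67.9 (median 33.4). The means were 51.2 ± 22.4 per 10000 in fimbria and 35.1 ± 14.04 in hippocampus (SD, n = 5 each). Its edgeR log2 fold was 0.12 (SE 0.14, adjusted p = 0.862) under TMM and 0.56 (SE 0.18, adjusted p = 0.0508) by total counts. Under TMM the sign of this fold turned in 4 settings, which tested 13 to 156 probes against 330 in the main fit. Each fold is relative to the probes of its own fit, so the reference changed too and no direction is settled.

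RTS0067780, with a mean log2 CPM of 11.6 by total counts, lay between RTS0067799 and RTS0064241 in abundance. Its edgeR log2 fold was 0.11 (SE 0.15, adjusted p = 0.893) under TMM and 0.54 (SE 0.20, adjusted p = 0.0804) by total counts. RTS0064241 was the third most abundant probe, and it had the smallest edgeR p of the 330 probes by total counts. The fimbria sums gave 19.1 counts per 10000 in N101, 36.3 in N108, 32.1 in N110, 38.4 in N111 and 49.5 in N112. In hippocampus the values were 8.28 in N101, 27.1 in N108, 18.6 in N110, 15.9 in N111 and 32.5 in N112. The fimbria value was 1.34 to 2.41 times the hippocampus value in the same mouse, and the counting intervals stood apart in 3 of 5 mice. These shares rest on 143 to 361 counts in the fimbria sums and on 44 to 215 counts in the hippocampus sums. The means were 35.1 ± 10.998 per 10000 in fimbria and 20.5 ± 9.51 in hippocampus (SD, n = 5 each), and 22.8 ± 8.07 in the 3 cortex sums. Over segments, fimbria ran from 15.1 to 55.0 (median 34.8) and hippocampus from 2.92 to 32.5 (median 18.5).

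For RTS0064241, edgeR gave a log2 fold of 0.43 (SE 0.15, unadjusted p = 0.0100, adjusted p = 0.620) under TMM and of 0.87 (SE 0.19, adjusted p = 0.0276) by total counts. It was not called with upper-quartile scaling, and it was called with a minimum count of 5 (log2 fold 0.86), without a count filter (1.16) and with TMM over all probes (1.16).

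RTS0065033 had the smallest unadjusted p of the 330 tested probes (0.00134, adjusted p = 0.441 by edgeR), and its direction was towards hippocampus. The fimbria sums held 6, 10, 11, 6 and 4 counts in N101, N108, N110, N111 and N112, and the hippocampus sums of those mice held 5, 3, 15, 15 and 2. Per 10000 counts that is 0.91 ± 0.35 in fimbria and 1.47 ± 0.51 in hippocampus (SD, n = 5 each), with fimbria lower in 4 of 5 mice. The counting intervals of the regions overlapped in all 5 mice. The log2 fold of -1.30 (SE 0.35) under TMM rests on 37 counts in fimbria and 40 in hippocampus. By total counts the fold was -0.80 (SE 0.36, edgeR adjusted p = 0.125) and ranked 95th by p, and it was -0.57 without a count filter.

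**Figure D5:**
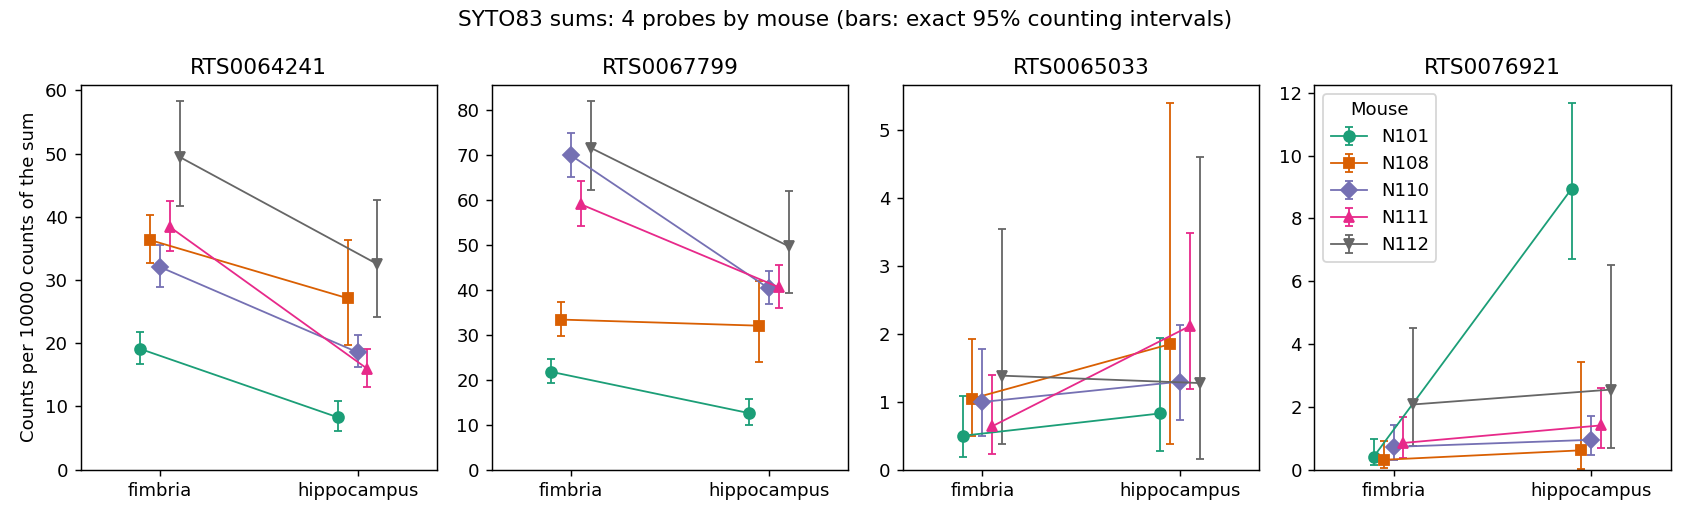
Counts per 10000 counts of the SYTO83 sum (y axis) in fimbria and hippocampus (x axis) for 4 probes, one marker per mouse with its exact 95% counting interval. RTS0064241 and RTS0067799 are higher in fimbria in all 5 mice, and RTS0076921 stands at 8.94 in the hippocampus of N101 and at or below 2.55 in its other sums.

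The IBA1 masks of the same mice and regions served as a comparison, with 33 passing segments, also summed per mouse. The IBA1 fimbria sums held 303341, 70784, 49194, 156675 and 27571 counts in N101, N108, N110, N111 and N112. In the same order, the IBA1 hippocampus sums held 355730, 128765, 520988, 179106 and 23473 counts. Some IBA1 segments came from areas without a SYTO83 segment. The labels do not say whether the SYTO83 segments exclude the IBA1 area. Of 2333 probes tested by the same edgeR fit, 0 were called (0%), and 70 had an unadjusted p under 0.05. DESeq2 called 0. The 100 probes that lead the SYTO83 sums took 2.29 ± 1.10% of IBA1 counts in fimbria and 1.98 ± 0.55% in hippocampus (SD, n = 5 each), and fimbria was higher in 3 of 5 mice. The mice scattered in both directions: N112 had 3.96% in fimbria and 1.92% in hippocampus, and N101 had 1.05% in fimbria and 2.08% in hippocampus.

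The regional difference in this share was 1.0 ± 1.4 percentage points larger under SYTO83 than under IBA1 (SD, n = 5), with 4 of 5 mice in that direction. The exact two-sided sign-flip permutation test gave p = 0.1875 (0.281 adjusted), so a difference between the masks was not shown. This value was added after the data had been seen. RTS0064241 had 15.9 ± 10.9 counts per 10000 under IBA1 in fimbria and 12.3 ± 3.87 in hippocampus (SD, n = 5 each), higher in fimbria in 3 of 5 mice. Its regional fold was 0.65 log2 units larger under SYTO83 than under IBA1 (SE 0.40), with an adjusted p of 0.786 in edgeR's test of the interaction.

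That interaction was tested over 1018 probes, and 1 was called, in the negative direction (0.0982%), whereas DESeq2 called 0. The probe was RTS0076921, whose regional log2 fold was 2.29 units lower under SYTO83 than under IBA1 (log2 difference -2.29, SE 0.54, edgeR adjusted p = 0.0349). Its SYTO83 counts were 5, 3, 8, 8 and 6 in the fimbria sums of N101, N108, N110, N111 and N112, and 54, 1, 11, 10 and 4 in the hippocampus sums of those mice. A single hippocampus segment of N101 held 51 of the 80 hippocampus counts. Without that segment 0 probes were called in the interaction.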

How the data were processed

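The deposited files give, per segment, deduplicated counts per probe code, and these counts are raw, with probes at 0 not listed, per the file headers. The authors' pipeline is named there (GeoMx_NGS_Pipeline 2.3.3.10), and the build GRCm39 is named in the submitters' processing notes. Aligned reads and deduplicated counts gave aligned share and saturation (1 minus counts over aligned reads).

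Segments with at least 1000 counts and 50% saturation were summed per mouse and region, and sums of at least 5000 counts were kept. Probes passing filterByExpr (minimum count 10) were tested with edgeR 4.0.16 (quasi-likelihood, TMM, mouse as block, Benjamini-Hochberg adjusted p under 0.05), in R 4.3.3 with limma 3.58.1. DESeq2 1.42.0 was an alternative. The fits were also run on simulated sums with known changes but no effect of mouse or plate, and no result given here rests on that run. Values per mouse were compared by exact two-sided sign-flip permutation tests. Counting intervals are exact (Clopper-Pearson, 95%) and cover counting error only. The 100 most abundant probes were ranked over the 10 SYTO83 sums. Classes by cortex rank were added after the data had been seen.

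Both regions come from the same animals, per the labels, which pairs the sums, and same-mouse deviations correlated between -0.04 and 0.20 over the tested probes. Probes were to be named where called, above the median level, in the same direction in every mouse and not held by 1 segment, which named none. Comparisons, members and lists were chosen with earlier results of these data known.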

Additional observations from a re-analysis of the deposited data

Results flagged for a closer look

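In 20 groups of 5 mice searched for a sample far from the other 4, chance flags about 5% of groups, or about 1. The fimbria sum of N112 stood apart with 28904 counts, against 93981 to 120329 counts in the other fimbria sums. The saturation of the fimbria sum of N101 stood apart at 98.4%. RTS0076921 stood apart in the hippocampus sum of N101, at 8.94 counts per 10000, of which 51 of 54 counts came from 1 segment. The regional fold of RTS0076921 differed between the SYTO83 and IBA1 masks by -2.29 on the log2 scale in the interaction test, and this rests on the same segment.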

How the results depend on the processing

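In the SYTO83 comparison of fimbria with hippocampus, the 0 probes higher became 29 with scaling by total counts, 18 without a count filter, 5 with a minimum count of 5 (both filters also changed the TMM factors) and 134 with TMM over all probes (chosen after seeing the data). The 0 lower became 3 without a filter, 2 with a minimum count of 5, and 1 each with stricter count minimums, cortex sums added and IBA1 sums added, with RTS0076921 among the calls in all 5 settings and alone in the last 3. Without the replicate block, the unpaired fit called 0 higher and 0 lower, and leaving out each mouse gave 0 throughout. For IBA1, calls were 2 without a filter, 1 with a minimum count of 5, 1 with at least 75% of reads aligned and 0 to 1 leaving out a mouse. The interaction's 1 call became 0 under DESeq2, upper-quartile and total-count scaling, no filter, a minimum count of 5, no replicate block, segments as observations, aligned share as covariate, plate A alone, plate B alone, plate added to the block, and without either of 2 single segments (added later), and was 0 to 1 leaving out a mouse. The 1 call without N101, that with at least 75% aligned and that with TMM over all probes (opposite in direction) were each another probe, so RTS0076921 was not called there.

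The TMM fold of RTS0067799 reversed to -0.23 with segments as observations (13 probes tested), -0.21 with at least 75% aligned (35) and -0.15 on plate A alone (123). It ran from -0.0062 to 0.21 leaving out a mouse, lowest without N110 (156 probes tested). The difference in counts reversed to -8366 on plate B alone. That in aligned share was -1.49 percentage points as a median over segments and ran from -8.36 to 14.9 leaving out a mouse, and that in saturation was 0.13 on plate B alone and ran from -0.21 to 0.12. The abundant-probe share kept its direction in every setting run, from 0.79 to 1.98 percentage points. Causes were not tested. Depth limits single probes, and 1 count is worth more in the sums of N108 and N112 hippocampus.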
